A study of Mus musculus with 2 samples.

Results

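The genes described here are the 8 phosphate transporters and transporter scaffolds Slc34a1, Slc34a2, Slc34a3, Slc20a1, Slc20a2, Xpr1, Slc9a3r1 and Slc9a3r2, out of 21938 protein-coding genes in the GENCODE M21 basic annotation. They were listed by name, with no measured value in the rule, but with earlier results of these data known. All 8 were found in the annotation. DNase-seq reads out open chromatin, since the enzyme DNase I cuts DNA most readily where nucleosomes are absent. It had been run on whole kidneys of male B6CASTF1/J mice aged 25 days, the F1 cross between C57BL/6J and CAST/EiJ. The series holds 1 group of 2 libraries, here replicate 1 and replicate 2, read from the labels as separate animals, with no treated or control group. No test between conditions was therefore possible, and every value below is a description of these libraries.

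The kidney reclaims filtered phosphate through sodium-phosphate cotransporters in the brush border of the proximal tubule. Slc34a1 encodes NaPi-IIa, the main one in the mouse, Slc34a3 encodes NaPi-IIc, and Slc34a2 encodes NaPi-IIb, which is best known from intestine and lung. Slc20a1 and Slc20a2 encode the widely expressed cotransporters PiT-1 and PiT-2, and Xpr1 encodes the known phosphate exporter of animal cells. Slc9a3r1 and Slc9a3r2 encode NHERF1 and NHERF2, PDZ-domain scaffolds, of which NHERF1 holds NaPi-IIa at the brush border. Parathyroid hormone and FGF23 lower phosphate uptake by removing the cotransporters from that membrane.

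Replicate 1 listed 125393 peaks and 237471 footprints, and replicate 2 listed 177001 peaks and 493495 footprints. A peak is a stretch of open chromatin with a height in the authors' unit, and a footprint is a short stretch inside open chromatin with fewer cuts than its surroundings, called at a false discovery rate of 0.01. Read depth is not stated, but heights below 1 lay on even steps (100% within 0.05 of a step) of 0.00855 in replicate 1 and 0.00497 in replicate 2, a ratio of 1.72. The 5 proximal tubule markers Lrp2, Cubn, Slc5a2, Slc22a6 and Aqp1 all had a promoter peak in both libraries, as did Umod, Slc12a1, Slc12a3, Pvalb, Scnn1g, Pax2 and Pax8. Of further kidney markers, Aqp2 of the collecting duct and Nphs1 of the podocyte had one in replicate 2 only, and Atp6v1g3 of the collecting duct had none. Of the lung, liver, heart, blood and adrenal markers Sftpc, Sftpa1, Scgb1a1, Alb, Apoa2, Myh6, Hba-a1, Ptprc, Cyp11b1 and Cyp21a1, none had one in either, and of the intestinal markers Vil1 had one (1.33 and 1.62) and Lct had none. In whole tissue, a low peak in many cells and a high peak in few cells cannot be told apart.

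All 8 genes had a peak within 500 bp of an annotated transcription start site (TSS) in both libraries. Over all protein-coding genes the share with such a promoter peak in both was 65.3% (14329 of 21938 genes). The 8 genes are described here in 3 levels. Slc20a1, Slc9a3r1 and Xpr1 had promoter peaks higher than 11 in both libraries. Slc20a2, Slc9a3r2 and Slc34a1 lay between 2.24 and 4.43, and Slc34a3 and Slc34a2 lay between 0.889 and 1.58. For comparison, the median promoter peak of all genes with one was 7.36 in replicate 1 (14530 genes) and 6.63 in replicate 2 (14923 genes). Within the upper level Slc20a1 and Slc9a3r1 changed places between the libraries, and within the middle level the heights of the 3 genes overlapped, so neither order is larger than the difference between replicates. The upper level stood clear of the rest in both libraries. The middle and lower levels were closer in replicate 2, where Slc34a1 at 2.24 and Slc34a3 at 1.58 differed by less than Slc34a1 did between the libraries, so that boundary is not larger than the difference between replicates.

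**Figure D1:**
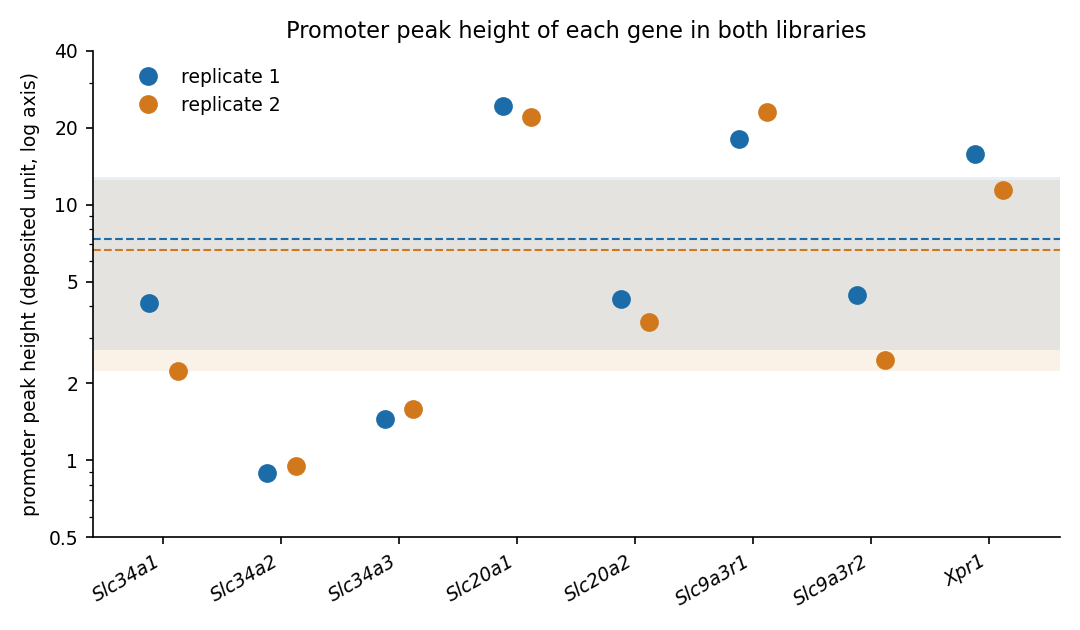
Height of the highest promoter peak of each gene (log axis, the authors' unit) in replicate 1 (blue) and replicate 2 (orange), with 1 point per library. Dashed lines are the medians and shaded bands the middle 50% of the promoter peaks of all protein-coding genes. In both libraries Slc20a1 and Slc9a3r1 lie above the bands and Slc34a2 and Slc34a3 below them.

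The promoter of Slc34a1 (ENSMUSG00000021490.11, chr13:55398187-55415592, plus strand, mm10) was open at the second of its 2 annotated start sites. The peak chr13:55399621-55399800 had its midpoint 18 bp past the TSS at position 55399693 and a height of 4.13 in replicate 1 and 2.24 in replicate 2 (mean 3.18 ± 1.34, SD, n = 2). These heights stood at percentiles 33.0 and 25.0 of all promoter peaks of the same library. Neither library had a peak within 500 bp of the other start site, at position 55398187. The promoter is poor in CpG: it fell in the second lowest of 10 equal classes of CpG observed over expected, in which 11.5% of genes had a promoter peak in both libraries.

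The Slc34a1 promoter held 4 footprints in replicate 1 and 4 in replicate 2. Below is the reference strand from 200 bases before to 30 bases into the RefSeq start, shown because its end is footprinted in both libraries. The window is chr13:55399448-55399677, plus strand, build GRCm38.p6, from the RefSeq promoter table, which matched 7 of the 8 genes, Slc20a2 being the exception. In all sequences here, capitals mark bases inside a footprint of both libraries.
Slc34a1 promoter: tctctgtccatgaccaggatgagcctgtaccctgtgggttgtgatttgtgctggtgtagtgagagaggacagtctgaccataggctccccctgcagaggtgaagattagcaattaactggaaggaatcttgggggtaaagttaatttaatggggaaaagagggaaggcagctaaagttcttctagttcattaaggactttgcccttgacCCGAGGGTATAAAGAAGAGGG
The 21 capitals at the end hold the letters TATAAA, which were looked for after the sequence was seen. The match began 29 bases upstream of the TSS at 55399693, and all 6 bases lay in a footprint of each library. Counted from the RefSeq start, which lies farther upstream, the match is inside the gene instead. Among all 21938 protein-coding genes, 2.96% had TATAAA on their own strand between 40 and 20 bases upstream of a basic TSS, and Slc34a1 was the only 1 of the 8 genes that did. Only these exact letters were counted, so close variants, such as TATATA shortly upstream of the Slc34a2 TSS, were not. Anywhere in the 300-base RefSeq promoters and on either strand, 13.6% held TATAAA. None of the other motifs searched occurred in the Slc34a1 window shown.

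Outside its promoter the Slc34a1 locus, taken as the gene plus 10 kb of flank at either end, held higher peaks than the promoter itself. A peak over coding sequence of the neighbouring gene F12 (coagulation factor XII), chr13:55418161-55418340, reached 8.17 in replicate 1 and 7.40 in replicate 2. A pair of intergenic peaks lay upstream. The one at chr13:55390721-55390960, 7.35 kb before the nearest Slc34a1 TSS, had heights of 3.72 and 4.94. The one at chr13:55391681-55391840, 6.43 kb before it, had heights of 2.99 and 4.63. Both upstream peaks were higher in replicate 2, while the promoter was higher in replicate 1. In the gene itself an intronic peak 5.90 kb past the TSS, chr13:55405501-55405680, had heights of 4.31 and 2.36. At the far end of the gene both libraries had peaks over the promoter of Pfn3 (profilin 3), which overlaps the Slc34a1 gene. Replicate 1 listed overlapping peaks of 4.37 and 5.75 there, and replicate 2 listed separate peaks of 3.03 and 6.71.

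The sequences of the farther upstream peak and of the intronic peak are given on the plus strand, because they are the highest intergenic and intronic peaks of this locus in replicate 1.
Slc34a1 upstream: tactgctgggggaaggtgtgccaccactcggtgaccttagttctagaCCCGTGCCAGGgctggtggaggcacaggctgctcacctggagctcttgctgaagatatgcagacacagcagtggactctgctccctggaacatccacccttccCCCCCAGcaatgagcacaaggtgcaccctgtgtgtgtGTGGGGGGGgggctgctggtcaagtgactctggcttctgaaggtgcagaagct
Slc34a1 intron: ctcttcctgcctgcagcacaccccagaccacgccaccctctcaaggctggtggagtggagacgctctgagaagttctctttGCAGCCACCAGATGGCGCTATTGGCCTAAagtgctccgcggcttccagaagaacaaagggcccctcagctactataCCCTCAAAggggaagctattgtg
The upstream peak had 27 bases in footprints of both libraries, in 3 runs, and held none of the motifs searched. The first capital run of the intronic peak contained a match to the core motif of CTCF, the insulator protein, whose 14 bases lay in a footprint in both libraries. Of all peaks, 15.2% in replicate 1 and 13.6% in replicate 2 held that motif.

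The count of Slc34a1 peaks differed more between the libraries than at any of the other 7 genes, with 9 peaks in replicate 1 and 21 in replicate 2. All 9 peaks of replicate 1 had a partner in replicate 2, and 12 peaks were listed in replicate 2 only. Of those 12, 11 lay inside the gene body, with heights from 0.402 to 1.17. They were low beside the 4.94 of the upstream peak in the same library. The ratio of 2.33 was reached or passed by 193 of 10622 genes with at least 5 locus peaks in replicate 1 (1.82%), against a median ratio of 1.29. Footprints in the locus numbered 28 and 75. Among the genes of the lists described further on, Pdzk1 had 10 and 58 locus peaks and Ezr had 15 and 39, both picked out after their values were seen. The 5 proximal tubule markers did not share 1 pattern: Lrp2 had 6 and 16 locus peaks, Cubn 10 and 18, Aqp1 4 and 8, Slc5a2 4 and 6, and Slc22a6 8 and 9. The kidney factor Pax2 had 14 and 35, and Pax8 had 16 and 30. The part of depth in these counts was not tested.

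At Slc34a3 (ENSMUSG00000006469.13, chr2:25228898-25234364, minus strand) the promoter peak was low and the peaks past the end of the gene were high. The promoter peak chr2:25234161-25234340 had heights of 1.44 and 1.58 (mean 1.51 ± 0.0958, SD, n = 2), at percentiles 16.1 and 19.8 of promoter peaks. Its CpG class was the lowest of the 10, in which 6.43% of genes had a promoter peak in both libraries. Immediately downstream of the gene, chr2:25228421-25228600 reached 6.46 and 8.50, and chr2:25228661-25228860 reached 6.50 and 6.77. Both exceeded the promoter in each library. The highest peak of the locus, at 13.3 and 14.6, belonged to the promoter of Tubb4b, a beta-tubulin gene, 9.52 kb past the Slc34a3 TSS, and an intergenic peak next to it, chr2:25225281-25225460, reached 6.95 and 9.03. A peak in an intron of Cysrt1, 6.56 kb upstream, had heights of 4.85 and 5.40. With 12 and 14 peaks in 25.5 kb, this was among the densest loci, at percentile 99.1 of all genes by peaks per kb. Only 1 of the peaks of replicate 1 and 2 of replicate 2 had their midpoint inside the gene, so most of this density belongs to the flanks and to neighbouring genes.

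The nearer of the downstream peaks, chr2:25228661-25228860, is shown because it and its neighbour exceed every peak at the gene's own start.
Slc34a3 downstream: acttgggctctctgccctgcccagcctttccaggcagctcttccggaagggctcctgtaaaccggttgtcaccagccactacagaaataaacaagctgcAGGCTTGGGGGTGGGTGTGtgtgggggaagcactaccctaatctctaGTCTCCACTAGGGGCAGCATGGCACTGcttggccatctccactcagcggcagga
It had 46 bases in footprints of both libraries, in 2 runs. Of a palindromic pair of ETS matches (CCGGAAG), the plus-strand match had all 7 bases and the minus-strand match 5 bases in a footprint of replicate 1. Neither overlapped a footprint of replicate 2. In the 200 bases before the RefSeq start of Slc34a3, no base was in a footprint of both libraries.

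Slc34a2 (ENSMUSG00000029188.14, chr5:53038081-53071664, plus strand) had the lowest promoter of the 8 genes. Its peak chr5:53049181-53049440 had heights of 0.889 and 0.949 (mean 0.919 ± 0.0425, SD, n = 2), at percentiles 10.4 and 13.7. The promoter was in the fifth class of CpG, in which 81.5% of genes were open in both libraries. The highest peaks of the locus were again not at the start: chr5:53078601-53078820, intergenic and beyond the end of the gene, had heights of 1.82 and 2.01. An upstream peak, chr5:53048081-53048220, had heights of 1.29 and 0.929 and lay over an exon of the annotated gene Gm17182. The other shared peak outside the promoter had heights of 0.650 and 1.01. The locus held 5 and 7 peaks, and neither library had a peak above 2.01 anywhere in its 53.6 kb. The gene record begins more than 10 kb before this TSS, at a start site outside the basic annotation, where neither library had a peak within 500 bp.

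**Figure D2:**
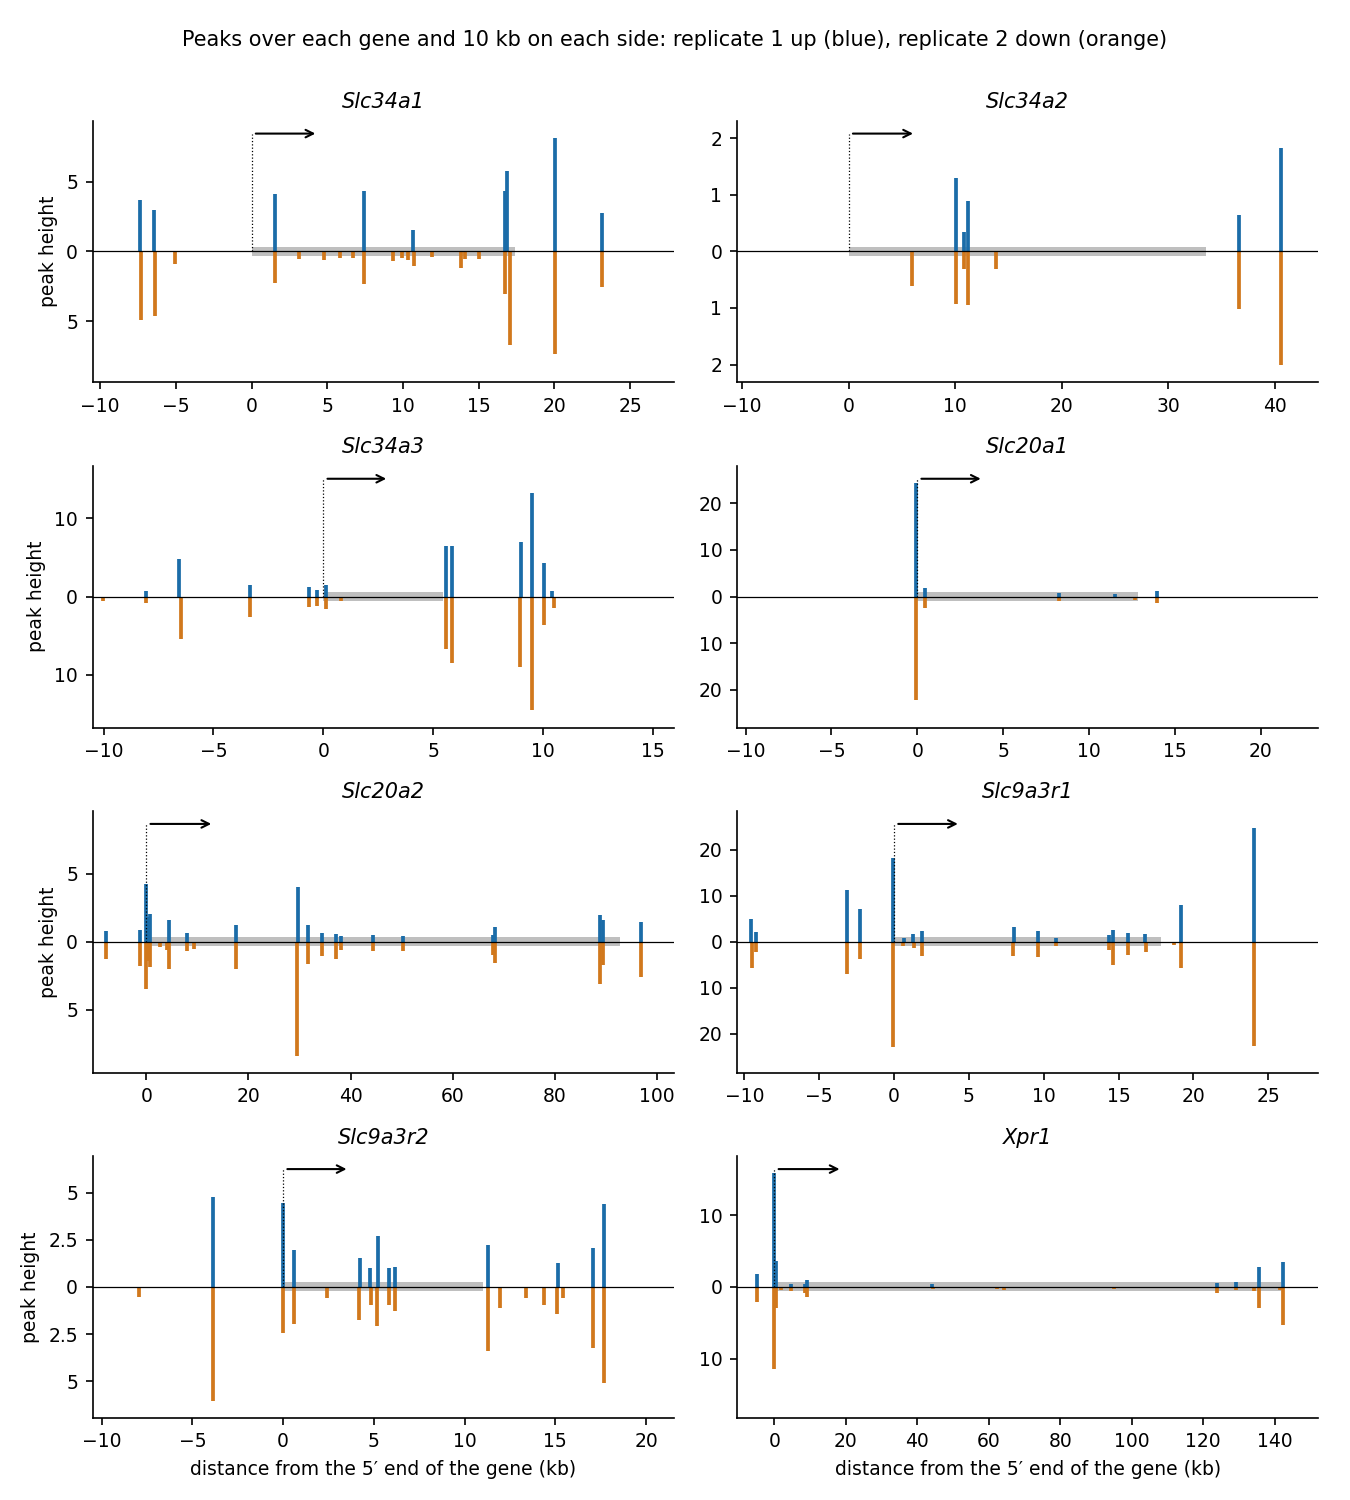
Peaks over each gene and 10 kb on each side, by distance from the 5′ end of the gene record in kb along the direction of transcription (arrow). Bars up are replicate 1 (blue), bars down are replicate 2 (orange), bar length is peak height on a scale of its own in each panel, and the grey band is the gene. In Slc34a1 and Slc34a3 the highest bars lie outside the start, while in Slc20a1 and Xpr1 a single bar at the start exceeds all others.

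Slc20a1 (ENSMUSG00000027397.14, chr2:129198764-129211616, plus strand) had the highest promoter peak of the 8 genes in replicate 1 and the second highest in replicate 2. The peak chr2:129198561-129198800 had heights of 24.4 and 22.1 (mean 23.2 ± 1.61, SD, n = 2), at percentiles 97.8 and 95.1. A minor peak, chr2:129199121-129199280, lay next to the second start site at 1.77 and 2.47. The rest of the locus was sparse, with 5 peaks in each library. The highest of them beyond the start, chr2:129212661-129212840 in an intron of 9830144P21Rik, had heights of 1.26 and 1.47, and an intronic peak of Slc20a1 had 0.846 and 1.01. That intronic peak spans a RefSeq start of Slc20a1, at position 129207096, which is outside the basic annotation. At Slc34a1 peaks away from the start were the higher ones, and at Slc20a1 none came near it. The promoter was in the top class of CpG, in which 97.7% of genes were open in both libraries.

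The 200 bases before the first RefSeq start of Slc20a1 are shown for contrast with the CpG-poor promoter of Slc34a1. The window is chr2:129198573-129198772, plus strand, GRCm38.p6.
Slc20a1 promoter: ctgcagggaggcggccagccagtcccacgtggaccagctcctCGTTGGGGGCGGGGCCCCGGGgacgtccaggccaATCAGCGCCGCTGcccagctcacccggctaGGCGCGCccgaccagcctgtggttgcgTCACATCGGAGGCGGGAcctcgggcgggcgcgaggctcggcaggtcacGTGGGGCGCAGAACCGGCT
It held 23 CpG dinucleotides, and 77 of its bases in 5 runs were in footprints of both libraries. The Slc34a1 window above held 1 CpG and 21 such bases. That window ends before the TSS at 55399693, so footprints of both libraries past this TSS are left out. Within 500 bp of the annotated start sites, footprints covered 74 and 93 bases at Slc34a1 and 108 and 205 at Slc20a1. In the Slc20a1 window, an SP/KLF match (CCGCCC) at position -152 from the start lay in footprints of both libraries over all 6 bases. An NFY match (CCAATCA) at -127 overlapped them by 4 bases. A further SP/KLF match at -46 overlapped them by 0 bases. Of the E-box matches (CACGTG), the one at -22 overlapped by 3 bases and the one at -175 by none.

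Slc20a2 (ENSMUSG00000037656.9, chr8:22476788-22569612, plus strand) differed from its paralogue Slc20a1 in having a modest promoter and many intronic peaks. Its promoter, which also serves the neighbouring gene Smim19 in the opposite direction, had heights of 4.26 and 3.48 (mean 3.87 ± 0.547, SD, n = 2). That put it at percentiles 33.6 and 33.0, although it was in the same top class of CpG as Slc20a1. The whole 1001 bp window around its TSS was listed at a false discovery rate under 0.001 in both libraries. Replicate 1 placed its highest peak there in 80 bp, while replicate 2 listed 340 bp. The gene body held 17 and 19 peaks, of which 13 and 15 were classed as intronic, with median heights of 0.641 and 1.06. The highest intronic peak, chr8:22506321-22506480, lay 29.6 kb past the TSS and had heights of 4.04 and 8.37. It exceeded the promoter in replicate 2 and lay just under it in replicate 1. Near the other end of the gene chr8:22565401-22565680 had heights of 1.97 and 3.09, and next to the promoter chr8:22477341-22477520 had 2.04 and 1.83.

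This intronic peak is shown on the plus strand as the highest distal peak of the locus in both libraries.
Slc20a2 intron: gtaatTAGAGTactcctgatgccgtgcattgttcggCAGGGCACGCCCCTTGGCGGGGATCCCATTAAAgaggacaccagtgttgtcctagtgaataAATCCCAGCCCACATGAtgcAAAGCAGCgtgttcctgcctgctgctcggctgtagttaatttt
Footprints of both libraries covered 64 of its 160 bases in 4 runs, and none of the motifs searched matched there. Of the 20 Slc20a2 peaks shared by the libraries, 17 were higher in replicate 2, and the 3 that were lower were those at and next to the promoter. Their log2 ratios (replicate 2 over replicate 1) had a median of 0.59, against 0.18 for all shared peaks. No single Slc20a2 peak departed from that overall median by more than 2-fold.

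Xpr1 (ENSMUSG00000026469.14, chr1:155275701-155417415, minus strand) had a high promoter and a long, sparse gene body. The promoter peak chr1:155417401-155417580 had heights of 15.8 and 11.4 (mean 13.6 ± 3.12, SD, n = 2), at percentiles 84.5 and 71.0. A lesser peak within the first 500 bp of the gene had heights of 3.67 and 3.001. Of 11 and 17 peaks in the 162 kb locus, 7 and 11 were intronic, with median heights of 0.607 and 0.467. By peaks per kb the locus stood at percentile 44.2 of all genes, the lowest of the 8. The highest peaks beyond the promoter lay at the far end. An intronic peak 136 kb from the start, chr1:155281601-155281780, had heights of 2.78 and 2.91. A peak just past the end of the gene and 142 kb from the start, chr1:155275101-155275260, had heights of 3.42 and 5.35. Upstream of the gene chr1:155422101-155422280 had heights of 1.81 and 2.12.

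The start of Xpr1 and the peak past its end are shown, the first on the gene's own minus strand (chr1:155417415-155417644, 200 bases before to 30 bases into the RefSeq start) and the other on the plus strand.
Xpr1 promoter: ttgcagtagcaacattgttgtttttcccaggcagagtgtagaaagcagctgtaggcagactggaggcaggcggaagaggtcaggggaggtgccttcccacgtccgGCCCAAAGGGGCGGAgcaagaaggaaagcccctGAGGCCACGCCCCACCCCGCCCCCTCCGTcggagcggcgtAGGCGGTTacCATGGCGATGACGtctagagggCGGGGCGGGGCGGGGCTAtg
Xpr1 downstream: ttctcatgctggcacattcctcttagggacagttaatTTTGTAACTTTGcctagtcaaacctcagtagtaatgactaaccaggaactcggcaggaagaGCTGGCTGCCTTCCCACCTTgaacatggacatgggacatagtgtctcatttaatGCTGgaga
The promoter window held 16 CpG and 83 bases in footprints of both libraries. All 5 of its SP/KLF matches overlapped such footprints, 4 of them over all 6 bases. Among all 300-base RefSeq promoters, 35.7% held at least 1 SP/KLF match. The downstream peak held 1 CpG, no motif match and 36 bases in footprints of both libraries.

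Slc9a3r1 (ENSMUSG00000020733.3, chr11:115163341-115181181, plus strand) combined a high promoter with many high peaks around it. The promoter peak chr11:115163121-115163400 had heights of 18.1 and 22.9 (mean 20.5 ± 3.40, SD, n = 2), at percentiles 90.4 and 95.9. It was the highest promoter of the 8 genes in replicate 2. Upstream, in an intron of Rab37, the peak chr11:115160081-115160260 reached 11.3 and 7.05. Next to it chr11:115160981-115161160, over an untranslated region of Rab37, reached 7.03 and 3.80. Downstream, the intergenic peak chr11:115182401-115182580 reached 8.09 and 5.73. All 3 were lower in replicate 2, whereas the promoter was higher there. The 24.8 and 22.6 of chr11:115187321-115187520 belonged to the start sites of Nat9 and Tmem104. Inside the gene, 10 and 9 intronic peaks had median heights of 1.85 and 2.84, and the highest in each library, which were different peaks, had 3.26 and 5.04. The locus held 17 and 18 peaks (percentile 98.5 by density) and 54 and 76 footprints (percentile 99.1).

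The promoter (chr11:115163141-115163370, plus strand, GRCm38.p6) and the peak in the Rab37 intron are shown because they carry the most footprinted bases of the windows at the scaffold genes.
Slc9a3r1 promoter: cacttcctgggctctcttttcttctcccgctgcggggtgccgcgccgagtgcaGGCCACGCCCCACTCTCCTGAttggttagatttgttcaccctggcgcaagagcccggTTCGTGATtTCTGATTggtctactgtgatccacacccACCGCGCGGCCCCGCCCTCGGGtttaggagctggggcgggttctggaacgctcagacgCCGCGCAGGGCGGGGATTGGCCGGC
Slc9a3r1 upstream: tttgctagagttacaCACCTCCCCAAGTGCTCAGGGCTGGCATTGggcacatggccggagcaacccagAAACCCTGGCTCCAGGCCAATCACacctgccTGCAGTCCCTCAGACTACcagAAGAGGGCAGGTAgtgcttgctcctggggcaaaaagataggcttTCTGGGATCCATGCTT
Of the promoter's bases 83 were in footprints of both libraries, as were 101 of the 180 bases of the upstream peak. The promoter held NFY matches at -129 and -79 from the start, both partly in shared footprints, and 7.82% of all RefSeq promoters held that motif. The upstream peak held another NFY match, with all 7 bases in footprints of both libraries, and a match to the CTCF core with 11 of 14 bases in them. Over all peaks of replicate 1, 2.70% held the NFY motif.

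Slc9a3r2 (ENSMUSG00000002504.15, chr17:24639286-24650327, minus strand) is the other scaffold gene, and its 5 annotated start sites were open at several places. The highest of its promoter peaks, chr17:24650221-24650420 at the first start of the gene, had heights of 4.43 and 2.45 (mean 3.44 ± 1.40, SD, n = 2), at percentiles 34.7 and 26.4. At the internal starts the highest peak was chr17:24644981-24645240, with heights of 2.69 and 2.08. The remaining start, at position 24647826, had a peak of 0.561 in replicate 2 and none in replicate 1. The highest peak of the locus that belonged to no promoter was intergenic, chr17:24654101-24654260, 3.85 kb upstream, with heights of 4.78 and 6.04. The promoter of Nthl1 and Tsc2, at the edge of the locus, had 4.38 and 5.10. Another intergenic peak, chr17:24638901-24639120, lay just past the end of the gene at 2.22 and 3.39. With 12 and 18 peaks in 31.0 kb the locus was at percentile 98.8 by density, close to Slc9a3r1.

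The upstream peak is shown on the plus strand as the highest at Slc9a3r2.
Slc9a3r2 upstream: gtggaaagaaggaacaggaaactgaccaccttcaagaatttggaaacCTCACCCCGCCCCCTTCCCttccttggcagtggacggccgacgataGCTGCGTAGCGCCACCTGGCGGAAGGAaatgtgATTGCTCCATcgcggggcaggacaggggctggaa
It held an SP/KLF match and a CTCF core match, each lying wholly within footprints of both libraries, and 56 such bases in all.

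Taken over all 8 loci, which cover 493 kb, replicate 1 had 91 peaks and replicate 2 had 123. Of the 91, 89 overlapped a peak of replicate 2 by at least 1 bp, or 97.8% (95% exact binomial interval 92.3 to 99.7). Over all peaks of replicate 1 that share was 87.6%. The 2 without a partner were intronic peaks of Slc20a1 and Xpr1 no higher than 0.487. In the other direction 89 of 123 were shared, or 72.4% (63.6 to 80.0), against 62.2% over all peaks. The 34 peaks of replicate 2 alone had a median height of 0.546, and none exceeded 1.17. The shared peaks of replicate 2 had a median height of 2.08. Neither share was matched for peak height when set beside that of all peaks. Such intervals cover counting error only, and they treat neighbouring peaks as independent.

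**Figure D3:**
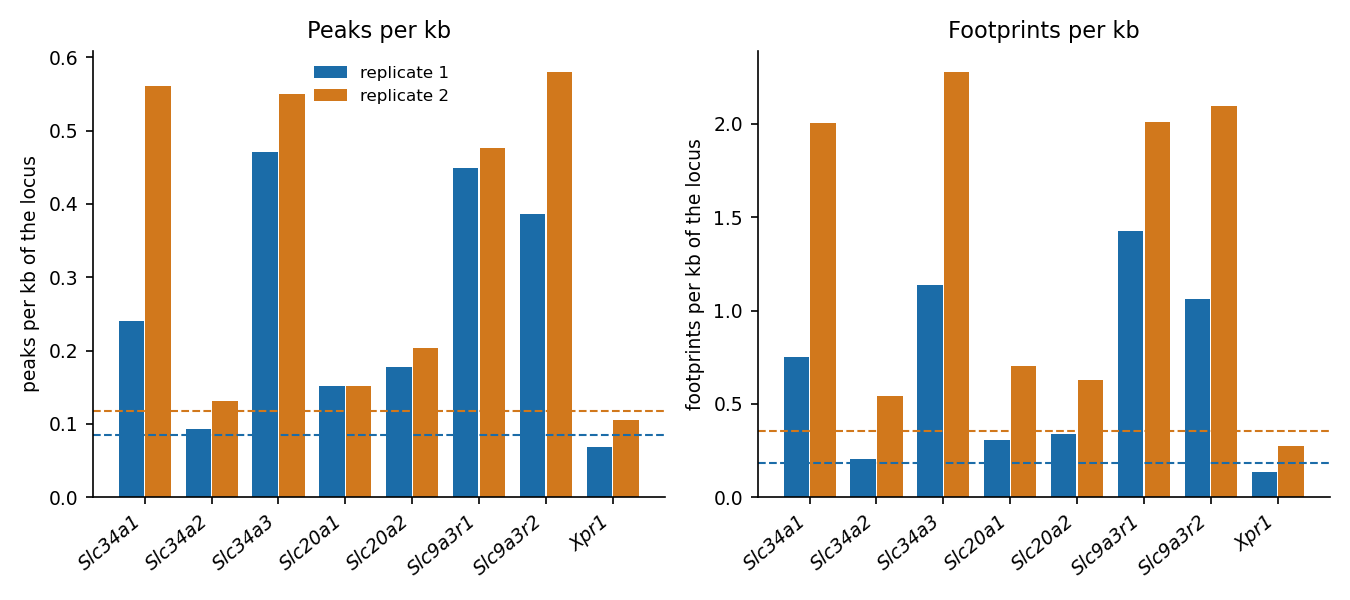
Peaks (left) and footprints (right) per kb over each gene and 10 kb on each side, in replicate 1 (blue) and replicate 2 (orange). Dashed lines are the medians of all protein-coding genes in each library. All genes but Xpr1 stand above the lines in both libraries, with Slc34a1, Slc34a3, Slc9a3r1 and Slc9a3r2 the farthest above, and Xpr1 stands below them.

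Density, ranked by the mean of both libraries, set Slc34a1, Slc34a3, Slc9a3r1 and Slc9a3r2 apart from the other 4 genes. The 4 had peaks per kb at percentiles 97.2, 99.1, 98.5 and 98.8 of all genes, in that order. Slc20a2, Slc20a1, Slc34a2 and Xpr1 stood at 76.8, 67.2, 53.6 and 44.2. Slc34a1 was the least clear of the upper 4, with 0.241 peaks per kb in replicate 1 and 0.561 in replicate 2. Slc20a2 had 0.177 and 0.204, so in replicate 1 these genes differed by less than Slc34a1 did between the libraries. Footprints per kb gave the same division, with Slc34a1, Slc34a3, Slc9a3r1 and Slc9a3r2 at percentiles 97.5, 99.1, 99.1 and 98.6 and the rest between 41.5 and 72.1. A short gene in a gene-rich region takes in peaks of its neighbours within 10 kb. Among the 107 peaks per library on average, 69 remained when the gene bodies alone were counted.

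Peak heights at these loci were close between the libraries. Over all 109888 shared peaks, log2 ratios of replicate 2 over replicate 1 had a median of 0.18 and an SD of 0.50. Of these, 2.18% were lower and 2.52% higher in replicate 2 by more than 2-fold about that median. At the 8 genes 5 of 89 shared peaks were lower by this measure and 0 were higher. Of the 5, 3 were at Slc34a1: its promoter (log2 ratio -0.88), its intronic peak (-0.87) and the broader of the overlapping peaks at Pfn3 (-0.93). The last depends on which of the separate replicate 2 peaks is taken as the partner, since the other, at 6.71, was higher than 5.75. The remaining 2 were the promoter of Slc9a3r2 (-0.85) and the Slc9a3r1 upstream peak in the untranslated region of Rab37 (-0.89).

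**Figure D4:**
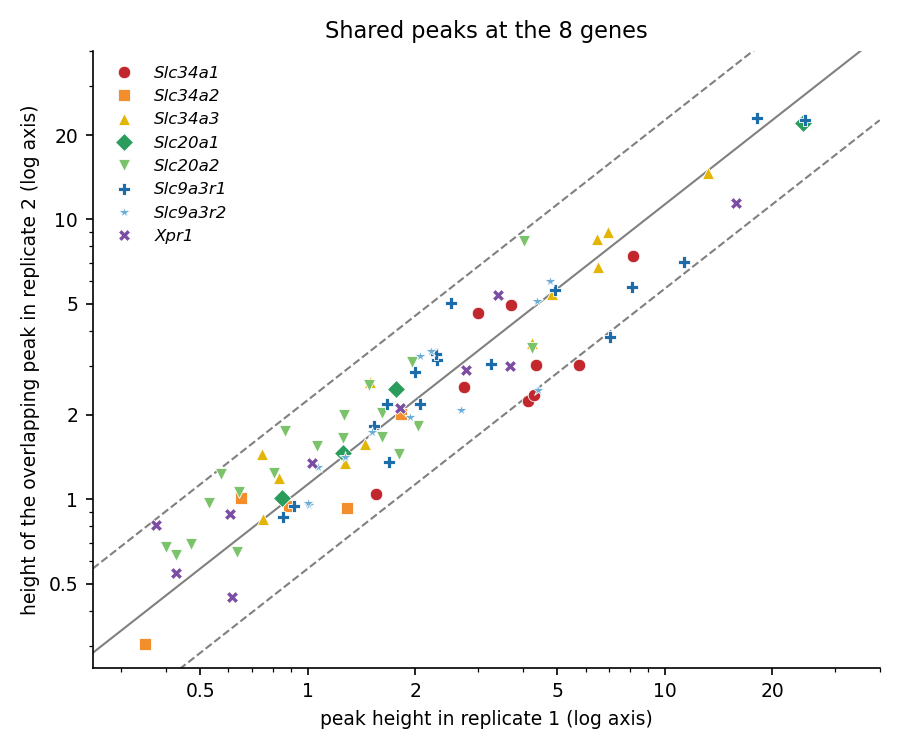
Height of each of the 89 shared peaks at the 8 genes in replicate 1 (x axis) and of its partner in replicate 2 (y axis), both on log axes, with symbols by gene. The solid line is the median ratio of all 109888 shared peaks and the dashed lines are 2-fold on either side of it. The points below the lower line belong to Slc34a1, Slc9a3r1 and Slc9a3r2, and no point lies above the upper line.

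The promoters can also be read against other promoters only. The median log2 ratio of promoter heights over the 14329 genes open in both libraries was -0.05, with an SD of 0.46. Slc34a1 and Slc9a3r2, whose promoter ratios are among the 5 above, lay at percentiles 3.31 and 3.96. Xpr1 lay at 17.3, Slc20a2 at 29.1, Slc20a1 at 41.3, Slc34a2 at 62.4, Slc34a3 at 65.4 and Slc9a3r1 at 81.3. The signs at Slc34a2 (0.09) and Slc34a3 (0.13) turned to -0.18 and -0.15 when heights were divided by the median of shared peaks, and the other 6 genes kept theirs. All 5 proximal tubule markers were lower in replicate 2, with log2 ratios from -0.61 to -0.16 (median -0.51) and summed heights of 16.2 and 12.2. Other kidney markers were lower too, namely the distal convoluted tubule markers Slc12a3 (-0.24) and Pvalb (-0.70), the collecting duct marker Scnn1g (-0.15) and the kidney factors Pax2 (-0.33) and Pax8 (-0.26). The loop of Henle markers Umod and Slc12a1 were at 0.51 and 0.01. What part the mix of cells had in these ratios was not tested.

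Footprints overlapped between the libraries less often than peaks did, by the same measure of at least 1 bp. They are also much shorter, with median widths over all footprints of 10 bp in replicate 1 and 12 bp in replicate 2. Peaks had median widths of 180 and 175 bp, so the measure is easier for peaks to meet. The loci held 225 in replicate 1 and 441 in replicate 2, a ratio of 1.96. Of the 225, 181 overlapped a footprint of replicate 2, or 80.4% (74.7 to 85.4), against 77.2% of all footprints. Of the 441, 158 overlapped one of replicate 1, or 35.8% (31.3 to 40.5), against 33.4%. At the promoters, the 10 footprints of Xpr1, 7 of Slc9a3r1, 6 of Slc20a1, 4 of Slc34a1 and 3 of Slc9a3r2 in replicate 1 all had a partner in replicate 2. At Slc20a2 5 of 6 did. At Slc34a3 and Slc34a2, the genes with the lowest promoter peaks, 1 of 4 and 1 of 3 did.

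Exact matches to 14 motifs were counted on both strands of the peaks at the 8 genes. The motif of HNF1 (GTTAATNAT), the tubule factor, that of HNF4 (CAAAGTCCA), that of the estrogen-related receptors (TCAAGGTCA) and the cyclic AMP response element (TGACGTCA) matched in 0 of 91 and 0 of 123 peaks. These motifs are long, and each matched in fewer than 1 in 100 of all peaks, namely 0.870%, 0.845%, 0.412% and 0.682% in replicate 1. The direct repeats of the vitamin D receptor and of PPAR, each with RXR, also matched in none, and these letters say nothing about weaker sites. SP/KLF matched in 21 of 91 peaks (23.1%, against 18.8% of all peaks of replicate 1). The CTCF core matched in 13 of 91 (14.3%, against 15.2%), and NFY in 7 of 91 (7.69%, against 2.70%). In replicate 2 NFY matched in 6 of 123 (4.88%, against 2.48%), and within 150 bp at the peak midpoints of replicate 1 it matched in 4 of 91 (4.40%, against 2.41%). Of the 7 replicate 1 peaks with an NFY match, 2 were the overlapping peaks at Pfn3, which hold the same site. The shared peaks held 7 distinct NFY sites, 4 of them at the Slc9a3r1 locus, and 4 of the 7 overlapped a footprint in both libraries. The E-box matched in 7 peaks (7.69%, against 4.95%), AP-1 (TGANTCA) in 6 (6.59%, against 5.50%) and ETS in 4 (4.40%, against 3.79%). NRF1 (GCGCATGCG) matched in 1 peak, and YY1 (AAGATGGCG) in 0 peaks of replicate 1 and 1 of replicate 2.

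The wider phosphate pathway was followed through 36 genes in 6 lists, and 30 of them had a promoter peak in both libraries. As at the 8 genes, this is to be read beside 65.3% of all protein-coding genes. All 6 hormone receptors and co-receptors did: the highest was Fgfr4, an FGF23 receptor, at 7.06 and 5.75, followed by Fgfr1 at 5.88 and 4.94. Kl, the co-receptor klotho, was at 4.38 and 3.26, and Pth1r, the parathyroid hormone receptor, was at 2.99 and 2.38. All 6 PDZ and membrane partners did as well, led by Myo6, a myosin of endocytosis, at 19.5 and 11.7 and Ezr, which encodes ezrin, at 9.56 and 8.02. Pdzk1, which encodes a further scaffold of NaPi-IIa, had 3.78 and 2.43, close to the 4.13 and 2.24 of Slc34a1.

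**Figure D5:**
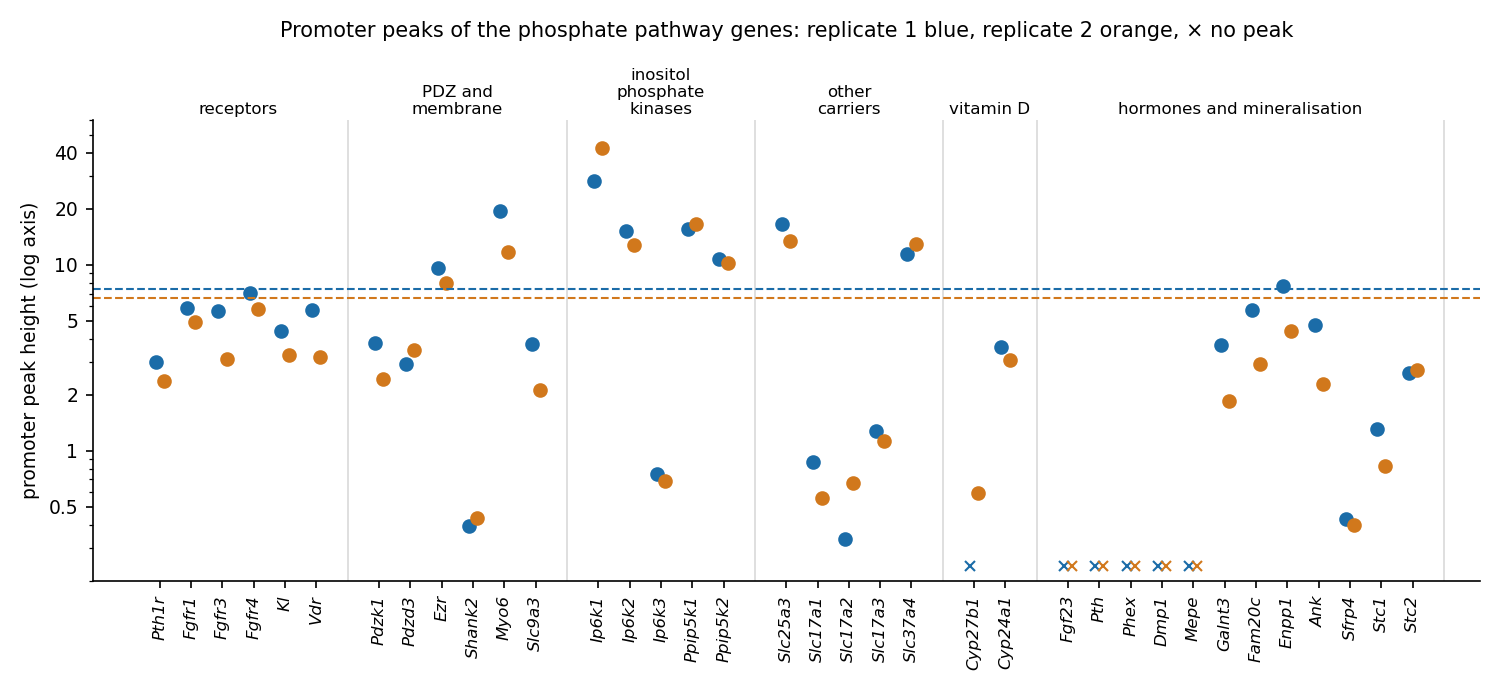
Promoter peak heights (log axis) of the 36 pathway genes in replicate 1 (blue) and replicate 2 (orange), grouped by list, with a cross where a library had no promoter peak. Dashed lines are the medians of all promoter peaks. The inositol phosphate kinases other than Ip6k3 lie above the lines, and Fgf23, Pth, Phex, Dmp1 and Mepe have no peak in either library.

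The inositol pyrophosphate kinases, which make the signal read by the SPX domain of XPR1, had the highest list median, 15.1 in replicate 1 and 12.8 in replicate 2. All 5 were open in both, with Ip6k1 at 28.3 and 42.3 and Ppip5k1 at 15.6 and 16.6. The 5 other phosphate carriers were open in both too. The mitochondrial carrier gene Slc25a3 stood at 16.6 and 13.4 and Slc37a4, the glucose 6-phosphate carrier of the endoplasmic reticulum, at 11.5 and 12.9. The organic anion and phosphate transporter genes Slc17a1, Slc17a2 and Slc17a3 lay between 0.333 and 1.27, the lowest of the carriers, as Slc34a2 and Slc34a3 were the lowest of the 8 genes. Of the vitamin D enzymes, Cyp24a1, which degrades the hormone, had 3.62 and 3.08. Cyp27b1, which activates it, had a promoter peak in replicate 2 only, at 0.591. Of 12 hormones and mineralisation genes made mostly in other tissues, 7 were open in both libraries, the highest being Enpp1 at 7.64 and 4.43 and Fam20c at 5.74 and 2.92. Fgf23, Pth, Phex, Dmp1 and Mepe had none in either, and they lay in the 4 lowest classes of CpG. Median log2 promoter ratios were -0.38 for receptors, -0.44 for membrane partners and -0.79 for the mineralisation list, against -0.05 over all promoters. The carriers had a median of -0.18, with a range from -0.65 to 1.01. The kinases had -0.07, close to all promoters, with a range from -0.24 to 0.58. Cyp24a1, the vitamin D enzyme gene open in both libraries, was at -0.23.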

How the data were processed

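A longer and a stricter peak list, a footprint list and a false discovery rate list per library were deposited by the authors on mm10, per the labels. Neither aligner nor caller is given in the sources used here, nor is whether alignment allowed for CAST/EiJ variants. The deposited signal is the peak height (column 7 of the longer list, which was used). The deposited false discovery rates (q-values) are listed below 0.05, and the footprint list carries a threshold of 0.01.

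A promoter peak is the highest peak overlapping 500 bp on each side of any GENCODE M21 basic TSS. A locus is the gene plus 10 kb of flank at either end. Density percentiles rank the mean of both libraries. Peaks were paired by the largest overlap (at least 1 bp). CpG classes are deciles over all protein-coding genes. Sequence came from GRCm38.p6 and RefSeq. Python 3.11.15, pandas 2.3.3, numpy 2.4.6, scipy 1.17.1 and pysam 0.24.0 were used, and the interval code was tested on simulated data.

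The members, lists and motifs were chosen with earlier results of these data known. The text names all 8 genes, their promoter peaks and up to 3 of the highest shared peaks beyond them, and the 2 highest promoters and those without a peak of each list. Other genes and peaks named were chosen after their values were seen. Both libraries are 1 group of 2, read as separate animals by their biosamples, although they share a donor code. Alternatives cover the peak list, windows, overlap, footprints and each library left out. A marker gene is not reported here.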

Additional observations from a re-analysis of the deposited data

How the results depend on the processing

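All 8 genes kept a promoter peak in both libraries with the stricter peak list, a window of 2000 bp, the upper 50% of peaks by height, and either library alone. With only the 5′ end of each gene record counted, 6 did, since Slc34a1 and Slc34a2 have their peaks at later start sites, and the median height of the members with a peak moved from 3.65 to 8.75. The mean number of locus peaks, 107, was 69 over gene bodies alone and 213.5 with 50 kb on each side, and 91 to 123 with each library left out. The share of replicate 1 peaks found in replicate 2 was 90.1% with a reciprocal overlap of 50% and 100% (71 of 71) in the stricter lists. For footprints a reciprocal overlap of 50% lowered it from 80.4% to 44.9%, and the mean number of footprints, 333, was 225 to 441 with each library left out, an alternative chosen after seeing the data. Dividing heights by the median of shared peaks turned the log2 promoter ratios of Slc34a2 and Slc34a3 from 0.09 and 0.13 to -0.18 and -0.15. No paired analysis was possible because the series has 1 group.

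Depth is not stated, so peaks listed in replicate 2 only cannot be set against a detection limit of replicate 1. With 2 libraries an SD rests on a single difference. Neither expression nor protein was measured here, and a peak near a gene is not thereby assigned to it.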
